A study of Homo sapiens with 16 samples.

Results

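The genes described here encode the proteins of the cytosolic ribosome and close paralogs of them. They were chosen by symbol, as every gene whose probe sets carried that symbol alone in the array annotation and whose symbol names a ribosomal protein of the large subunit (RPL, RPLP) or the small subunit (RPS), with mitochondrial ribosomal proteins, S6 kinases, pseudogene symbols and RPS4Y1 left out. This gave 57 genes on 95 probe sets, of 11963 genes on 19070 probe sets with a single symbol. Of the 57, 51 are core ribosomal proteins (31 of the large and 20 of the small subunit) and 6 are paralogs that resemble a core protein (RPL10L, RPL26L1, RPL36AL, RPL39L, RPL3L and RPS27L). For 23 genes with over 1 probe set, the brightest on average over the 16 arrays was taken. A further 16 ribosomal protein symbols, among them RPL5, RPL10 and RPL13A, appeared only on probe sets shared with other symbols and were not analysed here, and neither were RPLP0, RPSA, RPL26, RPL22L1 and RPL7L1.

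RNA was measured on 16 Affymetrix arrays in A673, an established Ewing sarcoma line driven by EWS-FLI1, the fusion of EWSR1 and FLI1. All arrays come from 1 clone, Asp14, which carries a hairpin RNA against the fusion under doxycycline control and was grown with Zeocin and Blasticidin to keep the hairpin and repressor vectors. The untreated group at 0 h has 4 arrays. Doxycycline was given at 1 ug/ml for 18 h or 36 h (3 arrays each) or for 53 h, 72 h or 96 h (2 arrays each). No untreated culture was sampled later than 0 h, and effects of culture time, of doxycycline and of the lost fusion cannot be told apart.

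A ribosome holds 1 copy of nearly every core protein beside the ribosomal RNAs, the acidic stalk proteins being an exception, and growing cells spend much of their transcription on these genes. Most of their mRNAs begin with a C followed by a run of pyrimidines, the 5′ terminal oligopyrimidine (TOP) motif, through which the mTOR pathway and LARP1 control their translation and stability. Several paralogs are expressed in fewer tissues or respond to other regulators: RPL39L is known from testis and cancer cells, and RPS27L is known as a p53 target. A673 is without working p53, and what lay behind the changes of RPS27L was not tested.

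RefSeq promoter sequences (build GRCh38.p14) were found for 49 of the 57 genes. A pyrimidine run of at least 5 bases beginning with a C at the listed start was present in 33 of 45 core genes (73.3%), against 6.24% of the 15843 protein-coding genes in the same table. None of the 4 paralogs with an entry had it. With the first C allowed within 5 bases either side of the start, the shares were 86.7% of core genes, 25% (1 of 4) of paralogs and 28.0% of protein-coding genes. The windows below run 5′ to 3′ on the gene's strand from 10 bases before the listed start through the first 20 transcribed bases, with any pyrimidine run that starts with a C at the start in capitals. They are shown because they set core genes described below beside the paralogs. RPL12 lies at chr9:127451387-127451416 (minus strand), RPS9 at chr19:54200848-54200877 (plus), RPS27 at chr1:153990752-153990781 (plus), RPL3 at chr22:39319604-39319633 (minus), RPL10A at chr6:35468391-35468420 (plus), RPS27L at chr15:63157458-63157487 (minus), RPL36AL at chr14:49620607-49620636 (minus), and the 2 listed starts of RPL26L1 at chr5:172958719-172958748 and chr5:172958870-172958899 (plus).
RPL12: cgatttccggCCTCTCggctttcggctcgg
RPS9: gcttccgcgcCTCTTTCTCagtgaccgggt
RPS27: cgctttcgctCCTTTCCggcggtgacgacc
RPL3: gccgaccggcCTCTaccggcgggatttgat
RPL10A: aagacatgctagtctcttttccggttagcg
RPS27L: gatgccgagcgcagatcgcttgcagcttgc
RPL36AL: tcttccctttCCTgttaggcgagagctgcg
RPL26L1 first start: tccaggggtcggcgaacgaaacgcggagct
RPL26L1 second start: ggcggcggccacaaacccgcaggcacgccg

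The runs from the start were 6 bases in RPL12, 9 in RPS9, 7 in RPS27, 4 in RPL3 and 3 in RPL36AL. RPL10A, RPS27L and RPL26L1 begin with a purine, and RPL10A has its pyrimidines shortly after the listed start. Other motifs were searched on both strands of the window from 250 bases before to 50 after the start. The ETS-type motif CCGGAAGT was found in 20% of core genes and 6.97% of protein-coding genes, and AAGATGGC, a YY1-type motif, in 8.89% and 4.66%. CACGTG, the E-box bound by MYC, was found in 6.67% and 10.9%. The E2F-type motifs TTTCGCGC and TTTGGCGC were found in 0 of 45 core genes and 1.99% of protein-coding genes, and 3 copies of GGAA in a row, a repeat of the kind EWS-FLI1 binds, in 0 of 45 and 0.101%. A match is a run of letters and not a binding site.

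Each array's upper quartile was between 8.08 and 8.18 on the log2 scale. The probe set of FLI1 used read 6.34 to 7.17 on the 12 arrays after doxycycline and 9.99 to 10.2 on those at 0 h. Of 6 Ewing sarcoma markers 5 had a probe set with that symbol alone, and these 5 passed the filter on low values used here. At 18 h 4 of them were called lower and at 96 h 5, where 14.7% and 35.7% of all genes were. The 3 blood, 4 epithelial and 3 endothelial markers on the array were below log2 4 on every array. Replicates 2 and 3 at 0 h, 18 h and 36 h differed from each other by less (SD over genes 0.164 to 0.186) than the other replicate pairs did (0.234 to 0.528). Counts with these replicates averaged are given where they differ by over 1.5 times.

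Of the 57 members 56 were tested. RPL3L, a paralog known from muscle, read 2.20 to 2.25 on the 16 arrays, below the filter of log2 4 on at least 2 arrays. Changes are differences of mean log2 values between groups, tested with limma over 7304 genes, and a change was called at a Benjamini-Hochberg adjusted p below 0.05. Over the whole time course 37 of 56 members differed between times by limma's F test (66.1%), against 84% of all genes tested. Core proteins made up 34 of these (34 of 51) and paralogs 3 (3 of 5). The F test gave 22 members with replicates 2 and 3 averaged, and 15 when the variance prior had no trend with expression level.

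Core ribosomal protein mRNAs changed little. Their median log2 change against 0 h was 0.01, 0.10, 0.14, 0.01 and -0.04 over the 5 times from 18 h to 96 h. In the same order, the median size of the change, whatever its sign, was 0.03, 0.10, 0.14, 0.07 and 0.08 for core proteins, against 0.24, 0.53, 0.59, 0.66 and 0.50 for all genes. A change of at least 0.5 in size was seen in 0, 3, 4, 5 and 3 of the 56 members, against 22.7%, 51.8%, 56.3%, 59.4% and 50.2% of all genes.

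**Figure D1:**
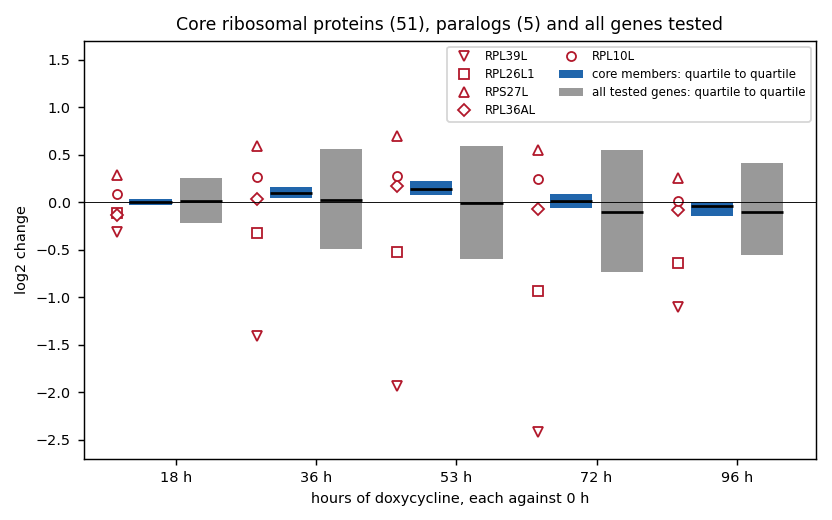
Log2 change against 0 h at each time. Blue bars span the lower to the upper quartile of the 51 core ribosomal proteins and grey bars that of the 7304 genes tested, black lines are medians, and open red symbols are the 5 paralogs tested. The core bars are narrower than the grey ones at every time, and RPL39L reaches -2.42 at 72 h.

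The probe sets of core proteins were among the brightest on the arrays: 49 of 51 had a mean at or above 11.9, the 95th percentile over genes tested, with a median of 14.1, while the highest value on any array was 15.2. The spread of group means over time was smaller for brighter probe sets. Its median was 0.18 for the 30 core proteins with a mean of 14 or above, and 0.34 for the 17 with a mean from 13 to 14. Across the 51 core proteins, which share the same arrays, Spearman's rho between mean and spread was -0.68, given as a description. The part of brightness in the small changes was not tested.

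At 18 h against 0 h, 1 member was called (1.79%), against 29.4% of all genes. It was RPL3, a large subunit protein near the peptidyl transferase centre. Its only probe set ends in _x_at, a kind that can cross-hybridize. RPL3 read 13.45, 13.16 and 13.17 at 18 h, against 13.12, 12.95, 12.96 and 13.05 at 0 h. All 3 arrays at 18 h lay above those at 0 h. The change was 0.24 ± 0.08 (SE, limma adjusted p = 0.0284). It missed the threshold with the replicate number as a block (adjusted p = 0.058), with replicates 2 and 3 averaged (0.077), without the variance trend (0.0604) and without replicate 1 at 18 h (adjusted p = 0.155), replicate 2 at 0 h (0.0731) or replicate 3 at 0 h (0.0714). With the block or the averaging no member was called at 18 h (0), and 3 members had an unadjusted p below 0.05 with neither.

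At 36 h and 53 h some core proteins of both subunits were called higher than at 0 h. At 36 h 21 members rose and 2 fell, 41.1% of members against 65.3% of all genes. Among all genes 33.2% rose and 32.1% fell. At 53 h 26 members rose and 3 fell, 51.8% against 66.3% of all genes, of which 31.8% rose and 34.5% fell. Core proteins made up 20 of those that rose at 36 h and 25 at 53 h, and 19 rose at both times. No core protein fell at 36 h, and 1, RPL35, fell at 53 h. In the small subunit 11 of 20 rose at 36 h (55%) and 13 of 20 at 53 h (65%). In the large subunit 9 of 31 rose at 36 h (29%) and 12 of 31 at 53 h. The share of the large subunit at 36 h was below the 33.2% of all genes that rose. Of the 51 core proteins, 47 had their highest group mean at 36 h or 53 h. The share of all genes with such a peak, or with a rise at both times, was not computed. Core proteins share the same arrays, so these counts are not of separate observations.

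The size of this rise was small on each array. The mean over the 51 core proteins, less its mean at 0 h, was -0.03, 0.01, 0.02 and -0.002 on the untreated arrays and 0.05, -0.02 and 0.003 on those of 18 h. It was 0.10, 0.13 and 0.12 on the arrays of 36 h and 0.19 and 0.10 on those of 53 h. The 72 h arrays gave -0.005 and 0.01, and the 96 h arrays -0.14 and -0.02. All arrays at 36 h and 53 h lay above all others, and the 2 arrays at 96 h differed more from each other than the 4 at 0 h did. A measure of RNA quality, the 3′ less the 5′ probe set of ACTB, was 2.09 to 2.45 at 36 h, above its 1.47 to 2.06 at 0 h. At 53 h this measure was 2.34 in replicate 1 and 1.83, within the range of 0 h, in replicate 2. Its part in the rise was not tested. With quantile normalization of the deposited values 15 members rose and 5 fell at each of the 2 times, and the medians were 0.05 at both. With replicates 2 and 3 averaged, 13 members rose and 2 fell at 36 h. Without replicate 1 at 53 h, 17 members were called at that time.

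**Figure D2:**
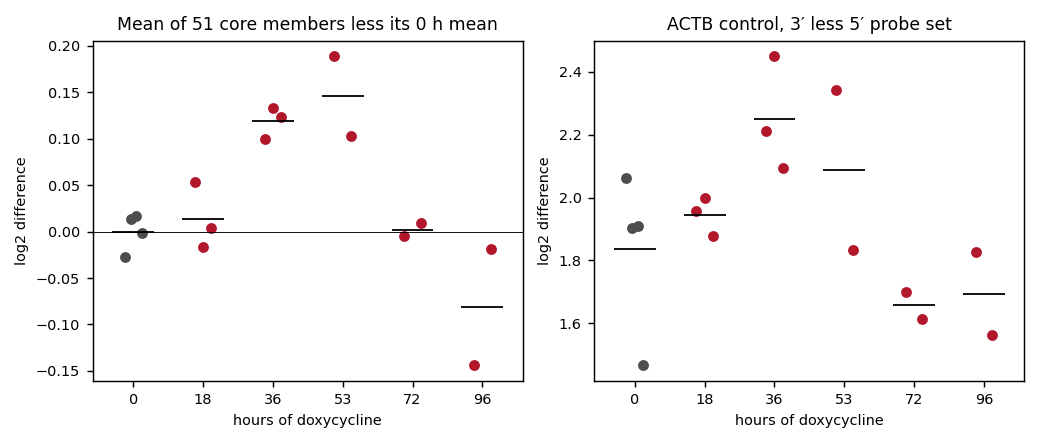
Left, the mean log2 value of 51 core ribosomal proteins on each array less its mean at 0 h. Right, the log2 difference between the 3′ and 5′ probe sets of ACTB on the same arrays. Points are arrays, grey at 0 h and red after doxycycline, and bars are group means. Left, values run from 0.10 to 0.19 at 36 h and 53 h and from -0.14 to -0.02 at 96 h.

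RPL3 showed the largest rise among core proteins, on its only probe set, which ends in _x_at. It read 13.50, 13.62 and 13.63 after 36 h, then 13.67 and 13.60 on the arrays of 53 h and 13.55 and 13.53 on those of 72 h, all above its highest value of 13.12 at 0 h. At 96 h it read 12.95 and 13.15, which overlaps 0 h. The changes against 0 h were 0.57 ± 0.08, 0.61 ± 0.09 and 0.52 ± 0.09 (SE) at 36 h, 53 h and 72 h, with limma adjusted p of 1.82e-05, 2.77e-05 and 0.000103. At 96 h against 72 h it fell by 0.49 (limma adjusted p = 0.00249).

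RPS9, a small subunit protein that binds the 18S RNA early in assembly, read 12.78, 12.89, 12.86 and 12.96 without doxycycline, 13.16, 13.30 and 13.29 after 36 h, then 13.28 and 13.40 on the arrays of 53 h and 13.13 and 13.17 on those of 72 h. These 7 later arrays lay above all at 0 h. The changes against 0 h were 0.38 ± 0.10, 0.47 ± 0.11 and 0.28 ± 0.11 (SE) for these times, with limma adjusted p of 0.0034, 0.00183 and 0.0342. The call at 72 h was lost without either array of 72 h (adjusted p = 0.0976 and 0.144), without replicate 1, 2 or 3 of 0 h (0.0718, 0.05 and 0.0594) and with replicates 2 and 3 averaged (0.079). At 96 h the 2 arrays stood at 12.67 and 13.18, below and above every array of 0 h.

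RPL12, a protein of the stalk base where elongation factors bind, read 13.86, 14.09 and 14.02 at 36 h, and 13.98 and 14.02 at 53 h, against 13.46, 13.69, 13.65 and 13.56 at 0 h. Its change was 0.40 ± 0.09 at 36 h and 0.41 ± 0.10 at 53 h (SE, limma adjusted p = 0.00104 and 0.00218), with no overlap with 0 h. RPL10A, a protein of the other stalk, the L1 stalk, read 13.52, 13.60 and 13.47 at 36 h, and 13.63 and 13.60 at 53 h, against 13.24, 13.30, 13.25 and 13.29 at 0 h. It rose by 0.26 ± 0.06 and 0.35 ± 0.07 (adjusted p = 0.00123 and 0.000368). Second probe sets of RPS9 and RPL12, both ending in _x_at, moved the same way at 53 h, by 0.35 and 0.37. At 72 h that of RPS9 changed by 0.08 and was not called. Its limma adjusted p was 0.38 with every probe set tested on its own, a setting chosen after seeing the data. The 72 h call of RPS9 was also lost with the mean of all probe sets of a gene.

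RPL31, which sits near the exit of the peptide tunnel, rose by 0.14, 0.30 and 0.28 at 36 h, 53 h and 72 h (limma adjusted p = 0.0248, 0.000516 and 0.000741). RPS27, a zinc finger protein of the small subunit, rose by 0.15, 0.25 and 0.23 (0.00484, 0.000269 and 0.000553). At 36 h the call of RPL31 was lost without replicate 1 or 3 at 0 h or replicate 2 or 3 at 36 h (adjusted p up to 0.091). RPL37A, another zinc-binding protein, rose by 0.13 and 0.15 at 36 h and 53 h (0.00273 and 0.00293) on its brightest probe set, the second call being lost without replicate 1 at 53 h (0.0617). With quantile normalization its changes were 0.028 and 0.022 and neither was called (0.451 and 0.587), nor was either without the variance trend (0.0676 and 0.0692). Quantile normalization also ended the calls of RPL31 (0.071) and RPS27 (0.151, a change of 0.06) at 36 h, and so did leaving out the trend (0.0916 and 0.054). The 2 other probe sets of RPL37A, not called at 36 h or 53 h, changed by 0.15 and -0.44 at 36 h and by 0.10 and 0.22 at 53 h.

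Among members chosen for their roles, RPS6, the substrate of S6 kinase, read 13.70, 13.85 and 13.89 at 36 h, and 13.87 and 13.84 at 53 h, against 13.58, 13.59, 13.62 and 13.68 at 0 h. It rose by 0.20 and 0.24 (limma adjusted p = 0.00859 and 0.0053). The first call was lost without replicate 3 at 36 h (0.0849). RPLP1 of the acidic stalk rose by 0.16 and 0.15 (0.00266 and 0.00987), the second call being lost without replicate 2 at 53 h (0.069), without the variance trend (0.0865) and with quantile normalization, where the change was 0.03 (0.563). RPL11, which with RPL5 and 5S RNA can inhibit MDM2, rose by 0.26 at 53 h (0.00412, and 0.062 without replicate 1 at 53 h), with a change of 0.13 at 36 h that was not called (0.0765). RPS14, lost in the 5q- syndrome, rose by 0.13 and 0.14 (0.033 and 0.041), and RPS19, mutated in Diamond-Blackfan anaemia, rose by 0.12 at 36 h (0.0316). The calls of RPS14 were lost without any of replicates 1 to 3 at 0 h, and so was that of RPS19 (adjusted p 0.0552 to 0.0827). Quantile normalization ended them too, at 0.0655 and 0.114 for RPS14 and 0.279 for RPS19. RPS3, a protein of the mRNA entry site, changed by 0.08 and 0.09 and was not called (0.0602 and 0.0721).

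**Figure D3:**
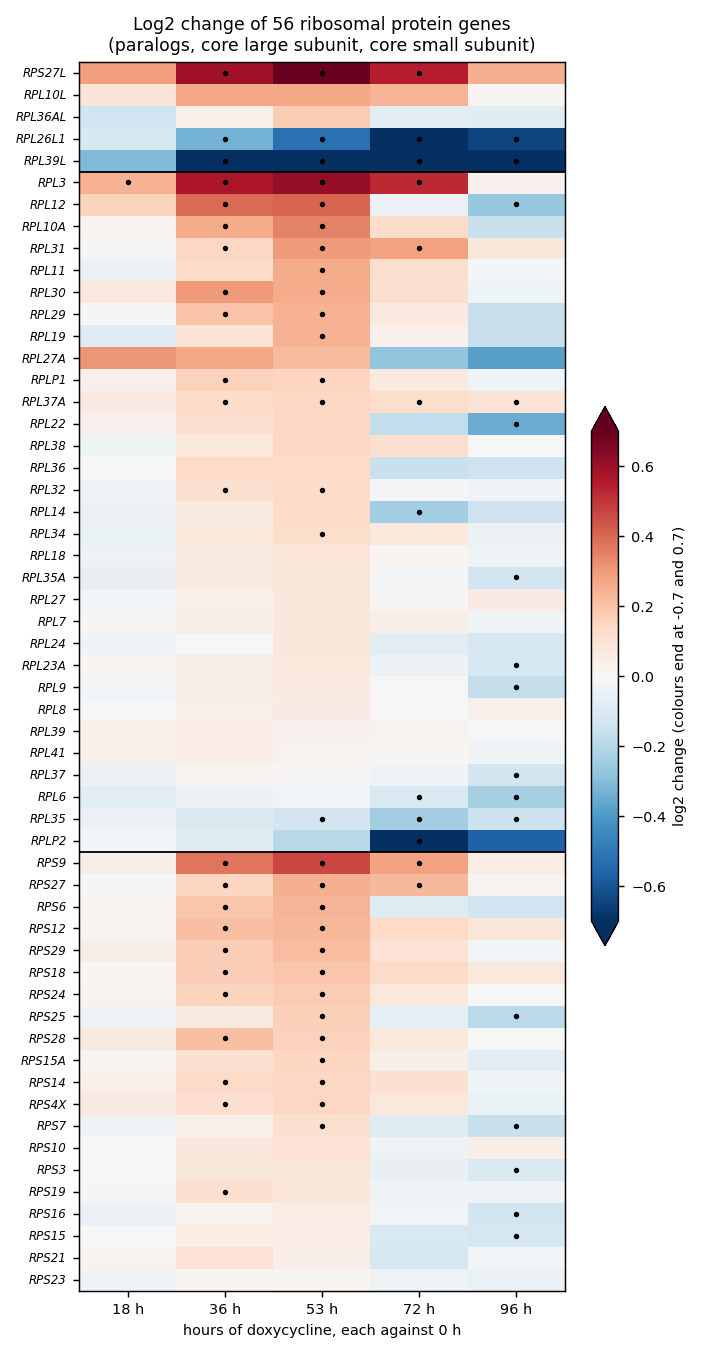
Log2 change of each of the 56 tested members (rows) at 18 h to 96 h of doxycycline (columns), each against 0 h. Red is higher and blue lower than at 0 h, colours end at -0.7 and 0.7, and black dots mark changes with a limma adjusted p below 0.05. Rows run from the 5 paralogs to the 31 core large and 20 core small subunit proteins. The columns of 36 h and 53 h are mostly red, and 15 of the 16 dots at 96 h mark lower values.

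At 72 h against 0 h, 6 members rose and 6 fell, 21.4% of members against 68.5% of all genes (29.3% rose and 39.2% fell). The 6 that fell include RPLP2, whose dim values are not read as a change below. The median over all genes was -0.11 at that time. When each array was centred on its median 25 members rose and 3 fell, with a median of 0.12, and with quantile normalization 6 rose and 15 fell. Beside RPL3, RPL31, RPS9, RPS27, RPS27L and RPL37A, which rose (RPL37A by 0.12, but by 0.031 and not called with quantile normalization, adjusted p = 0.451), RPL35 and RPL14, both of the large subunit, each fell by 0.24 (limma adjusted p = 0.00159 and 0.00796). RPL14 is named after its values were seen. RPL35 read 13.34 and 13.33 at 72 h, against 13.49, 13.65, 13.58 and 13.59 at 0 h. Its fall of 0.13 at 53 h (adjusted p = 0.0492) was lost without any 1 of 11 arrays, up to an adjusted p of 0.345.

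RPLP2, the partner of RPLP1 in the stalk, was represented by the brighter of its 2 probe sets, which was dim, with a mean of 3.92. It read 3.14 and 3.43 at 72 h, against 4.17, 4.26, 4.60 and 3.55 at 0 h. The difference from 0 h was -0.86 ± 0.29 (limma adjusted p = 0.0185, 0.136 without replicate 1 at 72 h and 0.0663 with replicates 2 and 3 averaged), at values near the filter on low signal. RPLP2 reached that filter on 10 arrays, all from 0 h to 53 h. It passed through these earlier arrays, so its lower later values are not read as a change. They are still included in the counts of members that fell at 72 h and of changes of at least 0.5 in size at 72 h and 96 h.

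At 96 h against 0 h, 15 members fell and 1 rose, 28.6% of members against 60.8% of all genes (25.1% rose and 35.7% fell). With the replicate number as a block 10 fell and 0 rose, with replicates 2 and 3 averaged 8 fell, and without the variance trend 5 fell. The median over members was -0.04 and that over all genes -0.10, and with arrays centred on their medians 8 members were called, 1 of them higher. Replicate 1 at 96 h carried much of the shift: the median was 0.01 without it and -0.13 without replicate 2. Of the 51 core proteins, 13 fell, and 3 of these, RPL12, RPS7 and RPS25, had risen at 53 h. RPS7 and RPS25 are named after their values were seen.

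RPL22, a large subunit protein that also binds other RNAs, showed the largest called fall of a core protein at 96 h. It read 12.28 and 12.64 at 96 h, against 12.71, 12.78, 12.84 and 12.91 at 0 h, with no overlap. It fell by 0.35 ± 0.08 (SE, limma adjusted p = 0.00209, and 0.0566 without replicate 1 at 96 h). All 5 of its probe sets were lower, by -0.23 to -0.43. The 2 dimmer ones, which averaged 10.5 and 10.2, had risen by 0.61 and 0.68 at 53 h, where the brightest changed by 0.14 and was not called.

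RPL12 read 13.12 and 13.53 at 96 h, against 13.46 to 13.69 at 0 h. It fell by 0.26 (limma adjusted p = 0.0314). The call was lost without replicate 1 at 96 h (0.627), without replicate 2 or 3 at 0 h (0.0743 and 0.0661) and with replicates 2 and 3 averaged (0.0953). RPL6, named after its values were seen, fell by 0.23 ± 0.04 (0.00021) and RPL35 by 0.15 (0.0312, with 0.0878 under the block and 0.392 without replicate 1 at 96 h). The call of RPL35 was also lost without replicate 2, 3 or 4 at 0 h, as was that of RPS3. RPS3 fell by 0.11 (0.0319), with 0.0771 under the block and 0.355 without replicate 1 at 96 h. RPL37A rose by 0.09 (0.0393) on its brightest probe set, with 0.0841 under the block and 0.211 without replicate 2 at 96 h. This call was also lost with quantile normalization and without the variance trend. With every probe set tested on its own, a second one of RPL37A was called lower, by 0.36 (limma adjusted p = 0.0409). The third changed by -0.01 and was not called. RPL31 differed by probe set at 96 h: the brightest changed by 0.08 and was not called, and the 2 others fell by 1.02 and 0.81 (adjusted p = 2.2e-05 and 0.0241 with every probe set tested on its own, a setting chosen after seeing the data).

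Against 18 h, both with doxycycline, 14 members were lower at 96 h and 0 higher (25% against 49.4% of all genes, 30% lower). A change of at least 0.5 in size was seen in 4 of 56 members, against 41.7% of all genes. Array centring left 7 called, averaging replicates 2 and 3 also 7, and leaving out the variance trend 5. RPL12 fell by 0.42 and RPL22 by 0.38 (limma adjusted p = 0.00414 and 0.0025), the call of RPL12 being lost without replicate 1 at 96 h (0.0832). RPL27A, whose probe set was dimmer (mean 8.69), fell by 0.69 (0.0365), a call lost without replicate 2 at 96 h (0.32) or any array of 18 h (0.0536 to 0.0884). Against 72 h, 5 members fell and 2 rose at 96 h (12.5% against 27.2%, of which 10.1% fell and 17.1% rose). The 5 were RPL3, RPL10A, RPS27, RPL31 and RPL9. RPL10A fell by 0.29 (0.0124), RPS27 by 0.21 (0.00994) and RPL31 by 0.20 (0.0424), and each of these calls was lost without replicate 1 at 96 h (0.133, 0.0893 and 0.38) and without replicate 1 at 72 h (0.132, 0.0701 and 0.248). RPL9 is named after its values were seen. The 2 that rose were paralogs. Averaging replicates 2 and 3 left 4 called and leaving out the variance trend 3. Without replicate 2 at 96 h 18 members were called in this comparison, and without replicate 1 at 72 h 2 were.

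Not called in any of the 7 comparisons, on the probe sets used, were 12 core proteins: RPL7, RPL8, RPL18, RPL24, RPL27, RPL36, RPL38, RPL39, RPL41, RPS10, RPS21 and RPS23. Of these RPL36 differed between times by limma's F test (adjusted p = 0.025). A second, dimmer probe set of RPS21 (mean 11.5) changed by 0.32 at 36 h and -0.44 at 72 h. Both were called (limma adjusted p = 0.00537 and 0.00114) with every probe set tested on its own, a setting chosen after seeing the data. RPL7, a parent of the paralog RPL7L1, read 14.61 to 14.82 on the 16 arrays. RPL39, a very small protein lining the exit tunnel, read 14.57 to 14.67, and its changes against 0 h were at most 0.05.

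Among the 5 paralogs tested, 3 changed over the time course and 2, RPL36AL and RPL10L, were not called. Their group means spanned 2.42 in RPL39L, 0.94 in RPL26L1, 0.69 in RPS27L, 0.31 in RPL36AL and 0.27 in RPL10L. Those of core proteins spanned up to 0.69 in RPL27A, leaving aside 0.86 in RPLP2, which lay near the filter. RPL39L, the paralog of RPL39, read 7.34, 7.65, 7.50 and 7.39 without doxycycline, 7.03, 7.26 and 7.18 after 18 h of it, and 6.02, 6.11 and 6.05 after 36 h. It then read 5.59 and 5.47 on the arrays of 53 h, 5.03 and 5.07 on those of 72 h, and 6.16 and 6.58 on those of 96 h. Every array after doxycycline lay below every array at 0 h, with the lowest values at 72 h. The change against 0 h was -0.31 ± 0.12 at 18 h (SE, limma adjusted p = 0.0616, not called). From 36 h to 96 h it was -1.41 ± 0.12, -1.94 ± 0.13, -2.42 ± 0.13 and -1.10 ± 0.13, with limma adjusted p of 2.52e-07, 3.68e-08, 3e-09 and 1.12e-05. At 96 h it was 1.32 ± 0.15 above 72 h (3.22e-05). From 36 h on these calls held in every alternative run and without any single array.

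**Figure D4:**
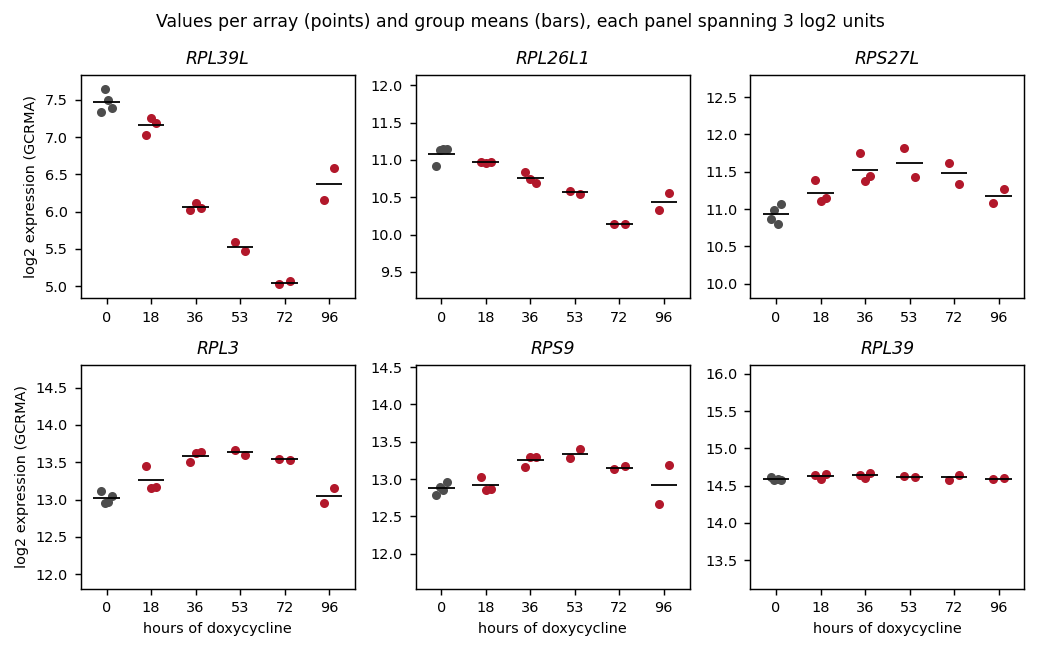
Log2 expression on each array (points, grey at 0 h and red after doxycycline) and group means (bars) by hours of doxycycline for 3 paralogs, 2 core proteins that rose and RPL39. Each panel spans 3 log2 units, but starts at its own level. RPL39L reaches 5.03 at 72 h, while RPL39 stays between 14.57 and 14.67.

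The difference between RPL39L and RPL39 on the same array was lower by 1.37 on average on the 12 arrays after doxycycline than on the 4 at 0 h (exact two-sided permutation test, p = 0.00385, adjusted p = 0.00385 over 2 pairs). All 12 differences lay below those at 0 h. With replicates 2 and 3 averaged the adjusted p of this permutation test was 0.0105. The probe set of RPL39 is one of the brightest, and the part of that in the difference was not tested.

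RPL26L1, a paralog of RPL26, read 10.92, 11.14, 11.14 and 11.15 without doxycycline, 10.97, 10.96 and 10.97 after 18 h of it, and 10.84, 10.74 and 10.69 after 36 h. The arrays of 53 h read 10.58 and 10.55, both arrays of 72 h 10.14, and those of 96 h 10.33 and 10.55. From 36 h on every array lay below 0 h. From 36 h to 96 h its changes were -0.33 ± 0.07, -0.52 ± 0.08, -0.94 ± 0.08 and -0.64 ± 0.08 (SE), with limma adjusted p of 0.0014, 9.56e-05, 2.92e-07 and 2.05e-05. Like RPL39L it was lowest at 72 h. Its value at 96 h was 0.30 above that at 72 h (0.036), a call lost without either array of 72 h (0.129 and 0.126), without replicate 2 at 96 h (0.237) or with replicates 2 and 3 averaged (0.0828).

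RPS27L, the paralog of RPS27, moved the other way. It read 10.87, 10.99, 10.79 and 11.07 without doxycycline, 11.39, 11.11 and 11.14 after 18 h of it, and 11.75, 11.38 and 11.44 after 36 h. The arrays of 53 h read 11.81 and 11.43, those of 72 h 11.62 and 11.34, and those of 96 h 11.08 and 11.27. All 12 arrays after doxycycline lay above those at 0 h. It rose by 0.60 ± 0.12, 0.69 ± 0.14 and 0.55 ± 0.14 (SE) from 36 h to 72 h, with limma adjusted p of 0.000735, 0.000607 and 0.00301. The last call was lost without replicate 1 of 72 h (0.0635). The differences from 0 h of 0.28 (18 h) and 0.25 (96 h) were not called (0.0981 and 0.138). The difference between RPS27L and RPS27 on the same array was higher by 0.35 on average after doxycycline than at 0 h (exact two-sided permutation test, p = 0.000549, the smallest these 1820 splits can give, adjusted p = 0.0011), in 12 of 12 arrays. With replicates 2 and 3 averaged the adjusted p of this permutation test was 0.0105.

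RPL36AL, a paralog of RPL36A, changed by -0.14 to 0.18 and RPL10L, a testis paralog of RPL10, by 0.01 to 0.27. Neither was called at any time. With the replicate number as a block RPL10L was called at 36 h and 53 h (limma adjusted p = 0.0485 and 0.0414), and with quantile normalization RPL36AL was called at 53 h (0.0271).

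Genes that work with ribosomal proteins were set beside them from lists made for these comparisons. FAU, the only gene measured of 4 ribosomal proteins under other symbols, changed by -0.07 to 0.16 and was not called. Other mRNAs known to carry a TOP motif rose in 4 of 7 genes at 36 h and 5 of 7 at 53 h, where 33.2% and 31.8% of all genes rose, with 0 lower at either time. At 96 h 1 rose and 4 fell, against 25.1% and 35.7% of all genes. Their medians at these 3 times were 0.22, 0.30 and -0.15, against 0.02, -0.01 and -0.10 for all genes. NAP1L1, a histone chaperone, rose by 0.37 at 53 h (limma adjusted p = 8.44e-06) and fell by 0.23 at 96 h (0.000656). NACA, which binds nascent chains, rose by 0.13 (0.0375) and fell by 0.19 (0.0069). VIM, the intermediate filament vimentin, rose at all times and by 0.45 at 96 h (1.38e-05).

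Initiation factors fell more often than they rose. Of 32 tested, 11 rose and 17 fell after 36 h of doxycycline, and 33.2% of all genes rose and 32.1% fell. After 53 h 10 rose and 17 fell (31.8% and 34.5% of all genes). At the next time, 72 h, 4 rose and 19 fell (29.3% and 39.2%). At 96 h 1 rose and 20 fell (25.1% and 35.7%), with a median of -0.36 against -0.10 for all genes. EIF3E and EIF3L, subunits of the initiation factor eIF3, rose by 0.35 and 0.39 at 53 h and fell by 0.57 and 0.39 at 96 h. EIF2S1, the alpha subunit of eIF2, fell by 1.60 at 53 h and by 0.76 at 96 h. Of 10 elongation and termination factors 5 fell and 3 rose at 53 h, and 3 fell and 0 rose at 96 h, beside the shares of all genes just given for those times. ETF1, the release factor, fell by 1.02 at 96 h and ABCE1, which recycles ribosomes, by 0.97. The third, EIF5A2, is also counted at 53 h, but it reached the filter on only 4 arrays, averaged 4.33 at 0 h and passed through its early arrays, so its lower later values are not read as a change.

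Proteins that escort or import ribosomal proteins, listed together with the export factors XPO1 and NMD3, fell at most times. Of 13 tested, 5, 11, 12, 12 and 10 fell over the 5 times from 18 h to 96 h, with 1 rising at each of the last 3 times. The shares of all genes that fell were 14.7%, 32.1%, 34.5%, 39.2% and 35.7%. The median was -0.80 at 53 h, against 0.14 for core ribosomal proteins and -0.01 for all genes. The importins IPO5 and IPO7 fell by 1.28 and 0.70 at 96 h (limma adjusted p = 3.94e-08 and 5e-06). BCCIP, a chaperone of RPL23, fell by 1.65 (2.12e-07).

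**Figure D5:**
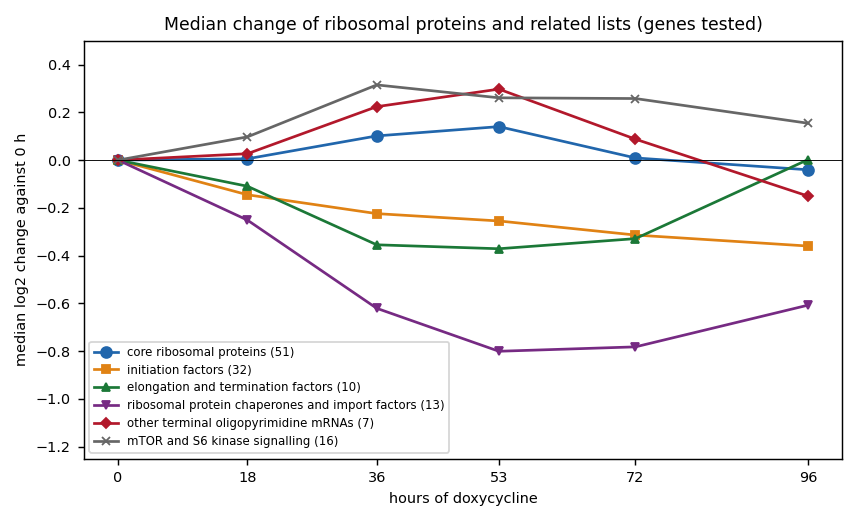
Median log2 change against 0 h (vertical axis) by hours of doxycycline (horizontal axis) for core ribosomal proteins and 5 related gene lists, with the number of genes tested in the legend. Core proteins and other TOP mRNAs lie above 0 at 36 h and 53 h and below it at 96 h. The list of chaperones and import factors, which also holds XPO1 and NMD3, lies at -0.80 at 53 h.

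Of 16 mTOR and S6 kinase pathway genes tested, 7 rose and 4 fell at 53 h, where 66.3% of all genes were called, and 3 rose and 3 fell at 96 h, where 60.8% were. DDIT4, a stress-induced inhibitor of mTORC1, rose by 3.87 ± 0.52 at 18 h (SE, limma adjusted p = 0.000178) and was 3.61 above 0 h at 96 h. RRAGA, a GTPase that recruits mTORC1 to lysosomes, rose by 0.89 at 96 h, and EIF4EBP2, a repressor of eIF4E, fell by 1.20. The arrays measure RNA levels and not translation or mTOR activity.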

How the data were processed

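Values are log2 probe set expression as the authors deposited it, from GCRMA per the submitters' processing notes, with version and settings not given in the sources used here. GCRMA corrects background from probe sequences and puts arrays on 1 scale, so a shift shared by all genes would be removed, and changes of very bright probe sets may be compressed. Probe sets ending in _x_at can cross-hybridize. They were 26.8% of member probe sets used and 6.63% of those of all genes tested, so ribosomal protein pseudogenes and paralogs may share signal. The number of arrays limits the precision.

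Models were fitted to all 16 arrays in R 4.3.3 with limma 3.58.1 (lmFit, 1 mean per time, eBayes with trend, 10 residual degrees of freedom), with data.table (version 1.17.8) for reading. Adjusted p-values are Benjamini-Hochberg over 7304 genes at log2 4 or above on at least 2 arrays, leaving out 4659. No table column belonged to other samples (0 found). The models were also tested on simulated data. Figures used Python 3.11.15, pandas 2.3.3 and matplotlib 3.10.9. Paralog differences were tested by exact permutation of arrays. Members and lists were chosen with earlier results of these data known.

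Named genes are the 3 highest and 3 lowest called changes per comparison, paralogs and parents, members with known roles, the member below the filter, and per related list the 3 smallest adjusted p at 96 h. Nothing in the labels says that replicates are separate cultures. The p-values therefore reflect only the scatter among these arrays, possibly technical. The replicate block was run because deviations from group means correlated in all 9 same-number pairs of 0 h, 18 h and 36 h (r 0.214 to 0.632). At these times replicates 2 and 3 of different times correlated as much with each other (0.202 to 0.55 in 6 pairs). These correlations therefore set replicate 1 apart and do not tell replicate 2 from 3. The block also used the replicate numbers of 53 h, 72 h and 96 h. Same-number pairs with an array of those later times had r from -0.207 (replicate 2 of 18 h and 96 h) to 0.248 (53 h and 96 h). For those times the block therefore rests on the numbers in the labels, and its p-values there are to be read with that limit. Alternatives were other normalizations, filters, probe set rules, variance models, a replicate block, replicates 2 and 3 averaged, and leaving out each array.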

Additional observations from a re-analysis of the deposited data

Results flagged for a closer look

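Among the values at 0 h of 26 items (25 named members and the mean of core proteins), 3 had 1 array far from the other 3 by Dixon's test at the 95% level, and chance flags about 1 in 20 such groups. RPL26L1 read 10.916 in replicate 1 and 11.14 to 11.15 in the others, so its falls after doxycycline are measured against a mean that includes a low array. RPL11 read 13.0849 in replicate 4 and 12.96 to 12.97 in the others. RPS14 read 14.1721 in replicate 4 and 14.07 to 14.09 in the others.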

How the results depend on the processing

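Counts below are members called by limma at an adjusted p below 0.05 and medians are of their log2 changes. With arrays centred on their medians, 28 members were called at 72 h (median 0.12). At 96 h it was 8 relative to 0 h (median -0.0013), 7 relative to 18 h (-0.027) and 17 relative to 72 h (-0.15). With quantile normalization, counts were 2 at 18 h and 21 at 72 h, and medians 0.045, 0.046 and -0.038 over 36 h, 53 h and 72 h. With no filter on low values, none (0) was called at 18 h, and at 96 h 10 relative to 0 h and 7 relative to 18 h. With the mean of all probe sets of a gene, 2 were called at 18 h, and the median at 96 h was -0.083. Under it RPL37A (-0.055 at 36 h and -0.094 at 96 h), RPS14 (-0.029 and -0.022 at 36 h and 53 h) and RPL31 (-0.58 against 0 h and -0.61 against 18 h, both at 96 h) changed sign. The mean for RPS14 includes its other probe sets, which were below the filter on low values.

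With _x_at and _s_at probe sets left out only 20 members could be tested. Counts from 18 h to 96 h, each relative to 0 h, were then 0, 5, 6, 7 and 6, with medians of -0.039, 0.048, 0.085 and -0.13 at 18 h, 36 h, 53 h and 96 h. The count was 4 for 96 h less 18 h, 3 for 96 h less 72 h and 10 by the F test. RPL37A (-0.44 and -0.013 at 36 h and 96 h), RPL22 (0.38 at 72 h) and RPL31 (-0.81 at 96 h) changed sign in values called with or without them. RPL37A and RPL31 at 18 h (-0.62 and -0.25) and RPL31 at 96 h against 18 h (-0.56), called in neither setting, also did. Without the variance trend, counts were 15 at 36 h, 16 at 53 h, 5 for 96 h against 0 h, 5 against 18 h, 3 against 72 h and 15 by the F test. Array weights gave 9 at 18 h, 36 at 36 h, 25 at 72 h and 9 for 96 h against 18 h. The replicate block gave 0 at 18 h and 10 at 96 h, each relative to 0 h, and beside the calls of named members given with the results it ended those of RPL35 at 53 h (adjusted p = 0.124), RPL10A and RPS3 at 96 h against 18 h (0.0541 and 0.0672) and RPL31 at 96 h against 72 h (0.0603) and made one of RPLP2 at 96 h (0.0383). It changed no other call of a named member. With replicates 2 and 3 averaged, counts were 0 at 18 h, 15 at 36 h, 8 for 96 h against 0 h, 7 against 18 h, 4 against 72 h and 22 by the F test. Testing every probe set on its own, chosen after seeing the data, called 20 at 72 h and, for 96 h, 27 relative to 0 h and 22 relative to 18 h, of 86 probe sets. The cause of these shifts was not tested, apart from the smaller number of members or samples where one is given.

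Leaving out each array in turn gave 0 to 2 members at 18 h (median -0.018 to 0.014) and 18 to 29 at 36 h (median 0.081 to 0.10). It gave 17 to 33 members at 53 h (median 0.10 to 0.17) and 8 to 18 at 72 h (median -0.0023 to 0.014). For 96 h the ranges were 10 to 21 against 0 h (-0.13 to 0.011), 8 to 21 against 18 h (-0.13 to -0.0041) and 2 to 18 against 72 h (-0.13 to -0.011), and for the F test 32 to 40. The paralog differences kept their sign and call, at 0.32 to 0.39 for RPS27L and -1.48 to -1.27 for RPL39L. For RPS9 at 96 h relative to 18 h, the change of 0.01 became -0.25 without replicate 2 of 96 h and 0.27 without replicate 1. Over all named members and settings, 3818 values kept direction and side of the threshold, 204 lost the call and 98 gained one. Another 11 changed sign with a call in either setting and 118 with a call in neither, 109 of these at under 0.1 in size.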
